A study of Mus musculus with 9 samples.

Results

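Interleukin-33 and interleukin-18 act through paired receptor chains of the interleukin-1 family. The genes described here are Il1rl1, Il18r1, Il18rap and Il18, 4 of the 909 genes named on the array, and they are covered by 5 of its 1246 probe sets. They were chosen by their family and selected on the log2 values they showed on these same arrays, so their levels and differences are given as a description, with no test. The arrays, an Affymetrix design named GLYCOv4, measured RNA of purified CD8 T cells from B10D2 mice carrying a transgenic T cell receptor, and every sample was labelled female. Each of the 3 groups had 3 arrays. The study asked how gene expression, of glycosylation genes above all, differs between cells headed for deletion and for anergy. Naive transgenic cells served as control. In the deletion group the cells were given a weak stimulus by their cognate antigen in the animal, and in the anergy group a strong one. The antigen, its dose and the day of harvest are not given in the labels. The labels number the replicates without tying each to its own animal, so all errors and p-values reflect sample-to-sample spread alone, and that spread may be technical.

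Interleukin-33 is an alarm signal released by damaged barrier and stromal cells. Il1rl1 encodes its receptor ST2, which signals in a pair with the accessory chain Il1rap, and the gene also yields a shorter secreted form of ST2 that binds interleukin-33 without signalling. Interleukin-18 is cut into its active form by inflammatory caspases, binds the chain encoded by Il18r1 and signals once the chain encoded by Il18rap joins. In T cells interleukin-18 is best known for raising interferon-gamma together with interleukin-12, and ST2 for its place on type 2 helper cells, regulatory T cells, mast cells and activated CD8 T cells. Il1rl1, Il18r1 and Il18rap follow one another on mouse chromosome 1 in RefSeq's annotation of GRCm38.p6, with no other protein-coding gene between them, next to Il1rl2, Il1r1 and Il1r2, while Il18 lies on chromosome 9.

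RefSeq (GRCm38.p6) lists 2 start sites for Il1rl1, 10059 bases apart, and the windows around them are shown because the 2 probe sets of this gene gave unlike values. Each window runs from 250 bases before a start to 50 bases after it, on the plus strand. The table does not say which transcript begins at which start. Below, capitals mark matches to the GATA motif, searched as AGATAA, then as AGATAG, then as TGATAA and lastly as TGATAG, on both strands, the binding letters of the GATA family of transcription factors. The first window, chr1:40429320-40429619, and the second, chr1:40439379-40439678, read as follows.
Il1rl1 start 1: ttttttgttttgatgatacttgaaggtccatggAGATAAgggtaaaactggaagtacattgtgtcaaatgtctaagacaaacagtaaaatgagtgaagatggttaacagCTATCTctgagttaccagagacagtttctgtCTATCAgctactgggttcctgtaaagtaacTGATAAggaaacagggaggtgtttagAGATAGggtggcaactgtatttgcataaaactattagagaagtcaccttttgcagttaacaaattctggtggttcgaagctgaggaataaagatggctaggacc
Il1rl1 start 2: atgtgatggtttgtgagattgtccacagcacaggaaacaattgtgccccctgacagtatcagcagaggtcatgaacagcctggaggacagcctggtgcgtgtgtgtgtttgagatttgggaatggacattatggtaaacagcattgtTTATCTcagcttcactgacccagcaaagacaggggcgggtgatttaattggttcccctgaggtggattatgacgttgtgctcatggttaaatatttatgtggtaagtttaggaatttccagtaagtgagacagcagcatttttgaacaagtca

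The first Il1rl1 window held 5 GATA matches, beginning 217, 141, 110, 80 and 54 bases before the start, and the second held 1, beginning 103 bases before it. Of 32851 mouse promoter windows of the same length, 29.8% held at least 1 match and 0.0548%, 18 windows, held 5 or more. The cutoff of 5 is the first window's own count, and any link of the matches to the probe set values was not tested. A match is a stretch of letters and not a measured binding site. Il18rap and Il18r1 are shown beside them because their probe sets rose to a like extent: Il18rap at chr1:40515112-40515411, and the first of 3 listed starts of Il18r1 at chr1:40465302-40465601.
Il18rap start 1: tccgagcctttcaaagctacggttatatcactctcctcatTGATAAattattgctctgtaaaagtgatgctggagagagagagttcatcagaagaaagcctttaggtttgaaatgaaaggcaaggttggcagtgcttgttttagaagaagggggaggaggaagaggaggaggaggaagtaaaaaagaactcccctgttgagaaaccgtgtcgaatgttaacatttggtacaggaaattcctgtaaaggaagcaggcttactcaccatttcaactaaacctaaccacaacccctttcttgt
Il18r1 start 1: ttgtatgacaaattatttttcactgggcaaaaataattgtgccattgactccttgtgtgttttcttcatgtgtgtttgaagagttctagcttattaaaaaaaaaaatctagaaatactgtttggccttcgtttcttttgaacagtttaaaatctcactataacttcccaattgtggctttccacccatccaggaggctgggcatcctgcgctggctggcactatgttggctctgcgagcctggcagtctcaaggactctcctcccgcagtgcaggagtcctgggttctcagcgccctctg

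The Il18rap window held 1 GATA match, 210 bases before its start. The 3 windows of Il18r1 and the single window of Il18 (chromosome 9) had no such letters. The AP-1 motif TGANTCA, present in 7.81% of all windows, was found in none of the 7 windows of these genes. The NFAT core GGAAA was found in all 7 and is common, at 61.3% of all windows. The T-box motif GGTGTG, present in 19.0% of all windows, was found in 1, the second start of Il18r1.

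**Figure D1:**
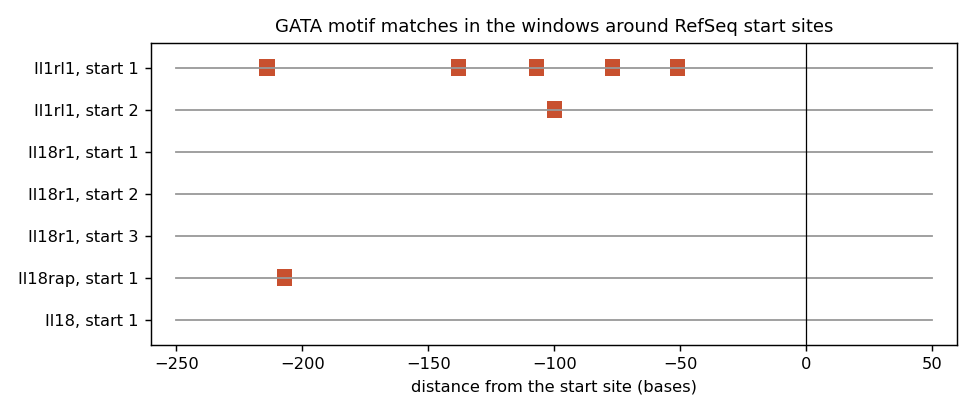
Position of GATA motif matches (orange boxes, 6 bases wide) in the 7 windows around the RefSeq start sites of Il1rl1, Il18r1, Il18rap and Il18, with the distance from the start site in bases on the x axis and 1 grey line per window. The first Il1rl1 start has 5 matches, the second has 1, Il18rap has 1, and the others have 0.

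The receptor for interleukin-33 differed most between the groups. The probe set designed on NM_001025602, the RefSeq transcript of the long, membrane-bound form of ST2, read 3.50, 4.13 and 4.14 on the log2 scale in naive replicates 1 to 3. The deletion arrays read 6.29, 6.29 and 6.32 and the anergy arrays 8.18, 8.26 and 8.00, in the same order. The groups stood in 3 separate steps without overlap: the lowest deletion array was 2.15 above the highest naive array, and the lowest anergy array was 1.68 above the highest deletion array. Deletion cells were 5.19-fold above naive cells (95% limits 4.09 to 6.59), a difference of 2.38 ± 0.15 on the log2 scale (SE, n = 3 arrays per group). Anergy cells were 18.7-fold above naive cells (14.7 to 23.7), a difference of 4.22 ± 0.15. The difference of anergy from deletion was 1.85 ± 0.15 (1.50 to 2.19), or 3.60-fold. The deletion change was 56.3% of the anergy change on the log2 scale. The naive values lie below the array medians of 4.44 to 4.58 and were not shown to be above background, so the folds against naive and this share depend on a baseline that may not be measured signal; the anergy minus deletion difference does not use it.

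The other Il1rl1 probe set, designed on NM_010743, the RefSeq transcript of the short secreted form, was nearly level. Replicates 1 to 3 read 3.47, 3.48 and 3.64 when naive, 3.69, 3.63 and 3.57 under deletion, and 3.75, 3.68 and 3.78 under anergy. All 9 values lie within a narrow dim range, and deletion overlapped both other groups, while the lowest anergy array was 0.04 above the highest naive array. Its differences were 0.10 ± 0.07 for deletion against naive, 0.21 ± 0.07 for anergy against naive and 0.11 ± 0.07 for anergy against deletion (SE). Taken array by array as changes from the naive mean, the long-form probe set exceeded the short-form probe set by 2.28 ± 0.08 in deletion and 4.02 ± 0.18 in anergy (SD, n = 3). The ID of the NM_010743 probe set carries the suffix s, which Affymetrix gives to probe sets that can match more than 1 transcript. The probe sequences were not used here, so which exons either probe set reads was not checked. The names long-form and short-form give only the transcript a probe set was designed on, and a rise of the membrane form alone is not shown.

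**Figure D2:**
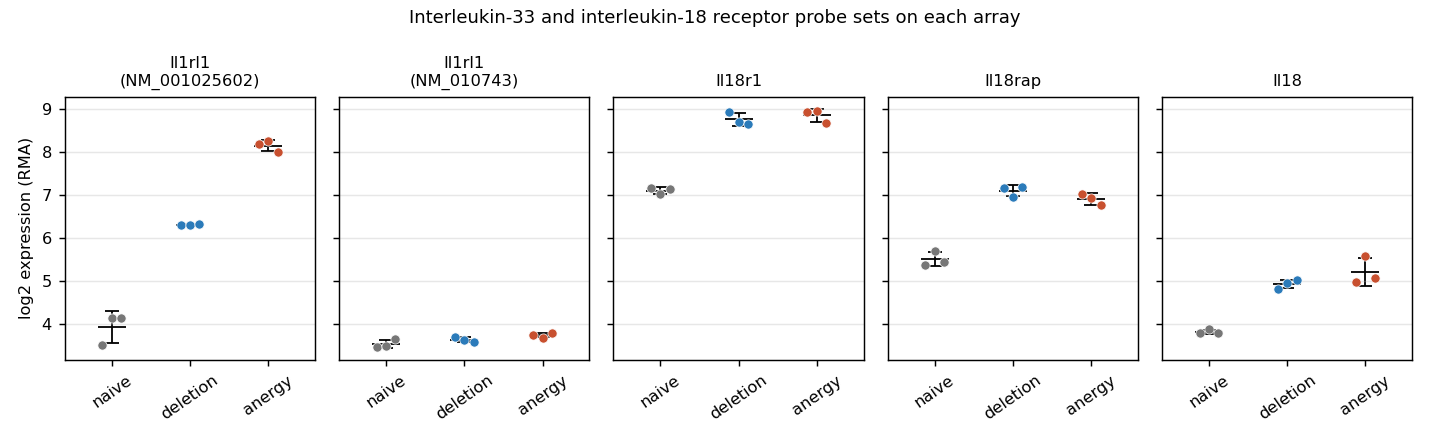
RMA log2 expression of each probe set on the 9 arrays, by group (x axis); points are arrays, the horizontal bar is the group mean and the whiskers are ± SD (n = 3). The NM_001025602 probe set of Il1rl1 climbs in 3 steps, from at most 4.14 in naive to at least 8.00 in anergy, the NM_010743 probe set stays between 3.47 and 3.78, and Il18r1, Il18rap and Il18 are higher in both stimulated groups than in naive.

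Both chains of the interleukin-18 receptor were higher after either signal, to about the same level. Il18r1, which binds the cytokine, read 7.16, 7.02 and 7.13 on the naive arrays, 8.93, 8.70 and 8.65 after the weak signal and 8.93, 8.96 and 8.68 after the strong signal. Every stimulated array was above every naive array, and the deletion and anergy arrays overlapped. Deletion was 3.15-fold above naive (95% limits 2.71 to 3.67; 1.66 ± 0.10 log2, SE) and anergy 3.37-fold (2.89 to 3.93; 1.75 ± 0.10). The difference of anergy from deletion was 0.10 ± 0.10, with limits of -0.12 to 0.32, so a fold of up to 1.25 between these groups lies within the error.

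Il18rap, the chain that completes the signalling receptor, read 5.38, 5.70 and 5.45 on the naive arrays. After the weak signal it read 7.17, 6.96 and 7.18, and after the strong signal 7.03, 6.94 and 6.76. As for its partner chain, naive stood apart and the other groups overlapped. Deletion was 3.02-fold above naive (2.56 to 3.56; 1.59 ± 0.11) and anergy 2.64-fold (2.24 to 3.11; 1.40 ± 0.11). The difference of anergy from deletion was -0.19 ± 0.11, with limits of -0.43 to 0.04. The deletion change was 94.5% of the anergy change in Il18r1 and 114% for Il18rap, beside 56.3% for long-form Il1rl1, whose dim naive baseline makes its share the less certain.

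Il18, the cytokine itself, was also higher in the stimulated T cells. The naive arrays read 3.79, 3.87 and 3.79, those of deletion 4.82, 4.95 and 5.01 and those of anergy 4.97, 5.58 and 5.07. Naive again stood apart, anergy replicate 2 was the highest array, and the other anergy arrays lay close to deletion. Deletion was 2.16-fold above naive (1.74 to 2.67; 1.11 ± 0.14) and anergy 2.62-fold (2.12 to 3.24; 1.39 ± 0.14). Anergy and deletion differed by 0.28 ± 0.14 (-0.03 to 0.59), and by 0.09 without anergy replicate 2. Its naive values, like those of Il1rl1, are below the array medians and were not shown to be above background. In bulk RNA of purified cells, more cells with the transcript and more transcript per cell cannot be told apart, for this gene or for the receptors.

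**Figure D3:**
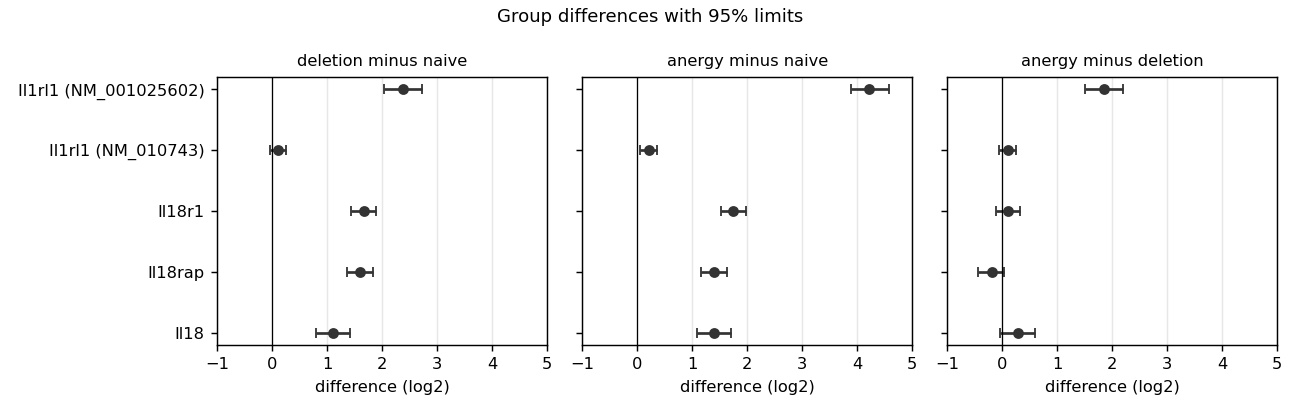
Differences between group means (log2, x axis) for each probe set, 1 panel per comparison; points are limma estimates and bars are their 95% limits. Against naive, 4 probe sets lie above 1 in both stimulated groups, and between anergy and deletion only the NM_001025602 probe set of Il1rl1 lies clear of 0, at 1.85.

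The number of these probe sets past the threshold can be set beside all probe sets of the array, but since the genes were selected on the same comparisons nothing is read from it. In limma fits with Benjamini-Hochberg adjustment over 1246 probe sets, 4 of the 5 were higher in deletion than in naive, beside 8.51% of all probe sets. In anergy against naive 5 of 5 were higher, beside 10.8%, but the short-form Il1rl1 probe set held its place in only 3 of 16 other settings. In anergy against deletion 1 of 5 was higher, beside 1.28%. By overlap of arrays, 4, 5 and 1 of the 5 were wholly above in deletion against naive, anergy against naive and anergy against deletion, beside 14.2%, 13.2% and 5.62% of all probe sets. The median difference of the 5 probe sets was 1.59, 1.40 and 0.11 in these comparisons, and that of all probe sets was -0.02, 0.01 and 0.01. Among all 1246 probe sets, long-form Il1rl1 had the second highest anergy minus deletion difference, after Klrc1 at 1.87, and 6 probe sets in all were higher by 1 or more. In anergy against naive it ranked 4 from the top, with Il18r1 at 21, Il18rap at 24 and Il18 at 25. In deletion against naive the same probe sets ranked 16, 23, 24 and 30. The comparisons against naive share the naive arrays.

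The remaining interleukin-1 family genes were mostly level and dim. For ligands and antagonists 15 names were listed, several of them older and newer names of the same gene, and 9 genes were measured. Of these 0 passed in limma in any of the 3 comparisons, with differences between -0.18 and 0.14. At an unadjusted p under 0.05 the counts were 1 in anergy against naive and 0 in both others. Il33, the ligand of ST2, averaged 2.36 in naive, 2.29 in deletion and 2.29 in anergy, close to the lowest value on any array (1.67), and its difference of anergy from naive was -0.07 ± 0.07 (SE). Il1b, a main inflammatory ligand of the family, differed by -0.14 ± 0.09 in deletion and -0.18 ± 0.09 in anergy against naive. Il1a differed by -0.06 and -0.04 and Il1rn, the receptor antagonist, by -0.07 and 0.04. Il1f5, Il1f6, Il1f8, Il1f9 and Il1f10, ligands and antagonists of the interleukin-36 branch and its relatives, lay within -0.12 to 0.14 of naive. No probe set matched Il18bp, the secreted antagonist of interleukin-18.

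Among other receptors of the family, 5 of 7 listed genes were measured. Il1rap encodes the chain that ST2 needs to signal, and only the brighter of its probe sets (NM_134103) rose. It was higher by 0.50 ± 0.10 in deletion (SE, limma adjusted p = 0.00603) and 0.45 ± 0.10 in anergy (adjusted p = 0.00787), both against naive. Its arrays read 3.97, 3.78 and 3.82 in naive, 4.22, 4.29 and 4.55 in deletion and 4.22, 4.45 and 4.24 in anergy replicates 1 to 3, and each stimulated array was above each naive one. The other Il1rap probe set (NM_008364) gave -0.12 ± 0.10 and 0.00 ± 0.10 and did not pass (adjusted p = 0.576 and 0.985). Which form of Il1rap either probe set reads was not checked, so a rise of the signalling form is not shown. Anergy and deletion differed by -0.05 ± 0.10 in the first and 0.12 ± 0.10 in the second.

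Il1rl2, the interleukin-36 receptor and the gene next to Il1rl1, fell by 0.36 ± 0.09 on the log2 scale in deletion against naive (adjusted p = 0.0176). This call was lost without naive replicate 2 (adjusted p = 0.0758), naive replicate 3 (0.0721), deletion replicate 1 (0.0666) or deletion replicate 2 (0.0565). In anergy it differed from naive by -0.14 ± 0.09 and did not pass. Il1r1, the signalling receptor for interleukin-1, differed from naive by 0.01 and 0.10 in deletion and anergy, the decoy receptor Il1r2 by 0.15 and 0.25, and Il1rapl2 by -0.07 and -0.01, and none of these passed, though Il1r2 did in anergy without naive replicate 1 (adjusted p = 0.0263). In all 1 of the 5 receptors was higher and 1 lower in deletion against naive, 1 higher and 0 lower in anergy against naive, and 0 in anergy against deletion, where 1 had an unadjusted p under 0.05 in limma. The list's median differences were 0.01, 0.10 and 0.09, beside -0.02, 0.01 and 0.01 for all probe sets, of which 10.5%, 16.1% and 2.09% were lower in these comparisons. Between anergy and deletion 16 probe sets were higher and 26 lower, while quantile normalization gave 38 higher and 32 lower, and median centring 13 higher and 13 lower. The lower count was 13 with a replicate block on the 6 deletion and anergy arrays, and 8, 14, 15 and 17 without deletion replicate 2, deletion replicate 3, anergy replicate 2 and anergy replicate 3.

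**Figure D4:**
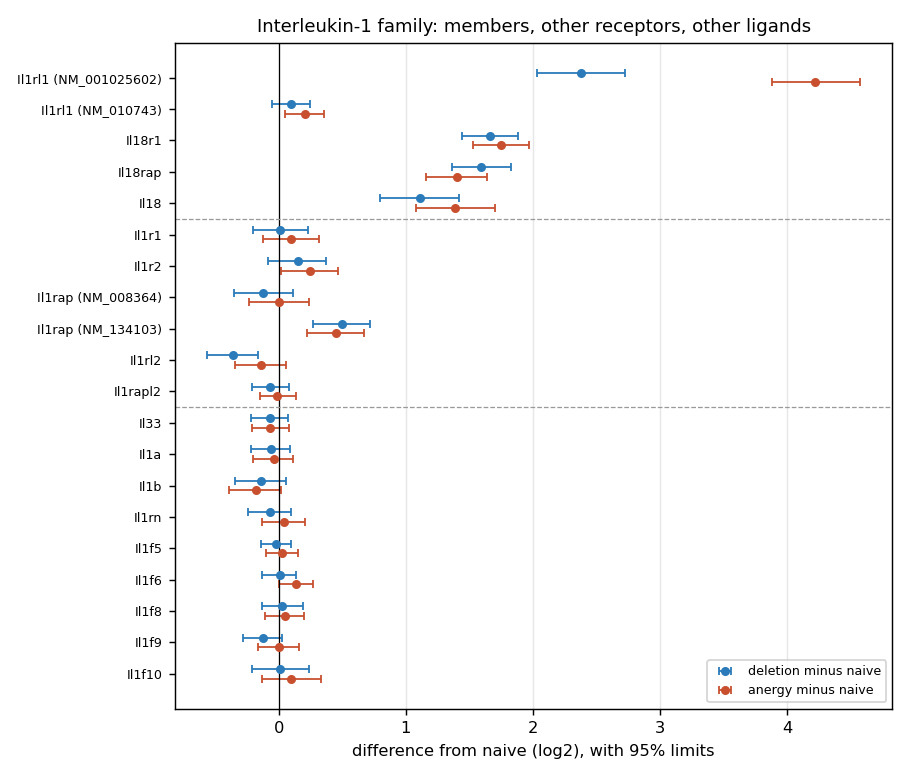
Differences from naive (log2, x axis) with 95% limits for the interleukin-1 family, deletion in blue and anergy in orange. Dashed lines separate the genes described here, the other receptors and the other ligands and antagonists. The other 15 probe sets lie between -0.36 and 0.50, and long-form Il1rl1, Il18r1, Il18rap and Il18 lie between 1.11 and 4.22.

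Interleukin-18 acts with interleukin-12, so the interleukin-12 receptor and its relatives were listed beside it, and 7 of 11 listed genes were measured. Il12rb2, the signalling chain of the interleukin-12 receptor, was the single gene of the list that was higher in anergy than in deletion. It read 3.56, 3.55 and 3.60 in naive, 3.22, 3.08 and 3.14 in deletion and 3.74, 3.79 and 3.98 in anergy replicates 1 to 3, so the groups did not overlap and naive lay in the middle. Anergy exceeded deletion by 0.69 ± 0.07 (SE; adjusted p = 0.000567; 9.89e-05 to 0.024 over 16 other settings), with all its values in the dim range. Against naive, deletion was lower by 0.42 (-0.42 ± 0.07, adjusted p = 0.00243) and anergy higher by 0.27 ± 0.07 (adjusted p = 0.0234). The last call was lost without naive replicate 1 (0.0679) or naive replicate 2 (0.0749).

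Il12rb1, the chain shared with the interleukin-23 receptor, averaged 5.96, 5.93 and 6.22 in naive, deletion and anergy. It did not pass in any comparison, with 0.26 ± 0.11 for anergy against naive (adjusted p = 0.141), which passed after quantile normalization (0.0185), with array weights (0.0278) and without anergy replicate 3 (0.0406). Il27ra, the interleukin-27 receptor, moved the opposite way to long-form Il1rl1. It fell by 0.92 ± 0.07 in deletion (-0.92, adjusted p = 4.8e-06) and by 1.39 ± 0.07 in anergy (-1.39, adjusted p = 1.56e-07) against naive. Anergy was below deletion by 0.47 (-0.47 ± 0.07, adjusted p = 0.00397), and this call was lost with a replicate block on the 6 arrays of these groups (adjusted p = 0.0503). The list had 1 gene higher and 1 lower in anergy against deletion, beside 1.28% and 2.09% of all probe sets. In deletion against naive it had 0 and 2, beside 8.51% and 10.5%, and in anergy against naive 1 and 1, beside 10.8% and 16.1%. Its medians were 0.07, -0.03 and 0.03 in this order, beside 0.01, -0.02 and 0.01 for all probe sets. The ligand chains Il12a, Il23a and Il27 and the receptor Il23r differed by at most 0.19 in any comparison and did not pass.

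Of cytokines that interleukin-18 or interleukin-33 can raise, 12 of 14 listed genes were measured. In deletion against naive the list median was 0.24, beside -0.02 for all probe sets. There 6 genes were higher and 0 lower, beside 8.51% and 10.5% of all probe sets. The higher genes included Ifng, the classical product of interleukin-18 with interleukin-12, at 4.38 ± 0.33 (SE, limma adjusted p = 5.64e-06). They also included the chemokines Xcl1 at 5.79 ± 0.21 (adjusted p = 2.16e-08), Ccl3 at 4.27 ± 0.22 and Ccl4 at 4.14 ± 0.24. Whether either interleukin raised them was not tested. The other higher genes, Csf2 (0.45) and Il2 (0.51), were dim, and Il2 was lost without naive replicate 2 (adjusted p = 0.101) or 3 (0.0721), deletion replicate 2 (0.0673) or 3 (0.0815), or with only these groups fitted (0.0647). In anergy against naive 6 were higher and 1 was lower, with a median of 0.25. Over all probe sets 10.8% were higher and 16.1% lower there, with a median of 0.01. In limma Ifng was higher by 4.03 ± 0.33 (adjusted p = 9.01e-06) and Xcl1 by 5.32 ± 0.21 (adjusted p = 3.8e-08). Ccl3 rose by 4.05 ± 0.22, Ccl4 by 3.28 ± 0.24 and the dim Csf2 by 0.33 ± 0.08. Il10, an inhibitory cytokine, was also higher, at 0.35 ± 0.10. Its call was lost without naive replicate 1 (0.0762) or 2 (0.0662) or anergy replicate 3 (0.0691). The lower gene was Ccl5, at -0.73 ± 0.24 with an adjusted p of 0.04999, a call that held in 8 of 16 other settings and was lost without naive replicate 1 (0.186) or 2 (0.125), deletion replicate 1 (0.056) or anergy replicate 1 (0.149), 2 (0.119) or 3 (0.071).

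In anergy against deletion 0 of these 12 genes passed in limma, beside 1.28% higher and 2.09% lower over all probe sets. At an unadjusted p under 0.05 there were 4. The list median was -0.17 and the range -0.86 to 0.33, beside a median of 0.01 for all probe sets. Ifng differed by -0.34 ± 0.33, Ccl4 by -0.86 ± 0.24 (adjusted p = 0.0863, 0.0344 with a replicate block on all 9 arrays, and 0.0893 with the block on the 6 deletion and anergy arrays) and Il10 by 0.33 ± 0.10 (adjusted p = 0.106, and 0.0379 after quantile normalization). Ccl4 also passed without deletion replicate 1 (-1.15, adjusted p = 0.0156). None of the type 2 cytokines that interleukin-33 is known to raise passed in limma: against naive, Il4 differed by 0.00 in deletion and 0.03 in anergy, Il5 by -0.22 (95% limits -0.44 to 0.00) and -0.07, and Il13 by 0.00 and 0.04. Their group means were dim, at 3.29 to 3.32 for Il4, 2.94 to 3.16 for Il5 and 4.02 to 4.06 for Il13. All lie below the array medians of 4.44 to 4.58 and were not shown to be above background. Shared adaptors and kinases (13 listed), inflammasome genes (7) and Toll-like receptors (12) matched no probe set.

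The genes with the most similar course were found by the root mean square difference over the 9 arrays, after subtracting each probe set's naive mean. Among named probe sets, the nearest to long-form Il1rl1 was Klrc1, the inhibitory receptor NKG2A, at 0.60, with 3.01 in deletion and 4.88 in anergy against naive. One unnamed probe set was closer, at 0.45. Klrc1 was followed by Lgals3 (0.63), Cks1b (0.74), Lgals1 (0.76) and Cks2 (0.80), beside a median of 2.81 over all other named probe sets. Of these 5, Klrc1 alone had a step between deletion and anergy (1.87) near that of Il1rl1, and the other steps were 0.20 to 0.50. The median of 2.81 mostly reflects how far long-form Il1rl1 itself moved from naive, so nothing is read from it. Over all probe sets the median change from naive was -0.02 in deletion and 0.01 in anergy.

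The chains of the interleukin-18 receptor were near each other. Among named probe sets, the nearest to Il18r1 was Il2rb, a chain of the interleukin-2 and interleukin-15 receptors (0.23), followed by Il18rap (0.25), Psen2 (0.28), Hmgn2 (0.28) and the adhesion receptor Cd44 (0.29). For Il18rap the nearest was Il18r1 (0.25), followed by Hmgn2 (0.28), Psen2 (0.32), Il18 (0.34) and Il3ra (0.37). For Il18 the nearest were B4galt5 (0.21), Hmgn2 (0.25), Gmds (0.29), Mrpl27 (0.31) and Pmm1 (0.31). For Il18rap and for Il18, 1 unnamed probe set each was closer than the nearest named one, at 0.24 and 0.21. The medians over all other named probe sets were 1.41, 1.24 and 1.05 for Il18r1, Il18rap and Il18. These medians, too, mostly reflect the change of each gene itself, and nothing is read from them.

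ST2 is also carried by other cells, so their markers were read on the same arrays. Of 14 listed mast cell, basophil and eosinophil gene names, with Siglecf also listed as Siglec5, 5 were measured. Their summed linear level was 46.2 to 56.4 in naive, 48.7 to 54.5 in deletion and 47.5 to 53.7 in anergy. Kit, which mast cells carry, stayed between 2.54 and 2.74 on the log2 scale on all arrays. Of the 5 genes 1, Siglecf, was higher against naive, beside 8.51% of all probe sets in deletion and 10.8% in anergy. Siglecf differed by 0.33 in deletion and 0.39 in anergy. Of 8 listed CD4 and regulatory T cell genes only Il2ra and Areg were measured, with a summed level of 18.1 to 19.1, 17.9 to 22.0 and 30.8 to 37.0. Il2ra, which activated CD8 T cells also carry, moved with Il1rl1 in anergy, at 1.16 above naive and 1.05 above deletion, and its part in the result was not tested. Foxp3, Cd4, Cd8a and Cd3e matched no probe set, so the CD8 label could not be checked on its defining genes. Cd2, the single T cell gene measured, was bright in all groups and averaged 11.58 in naive, 10.01 in deletion and 9.40 in anergy.

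Of 13 measured macrophage and dendritic cell genes, which could bring Il18, 0 were higher and 1 lower in deletion against naive, and 1 higher and 1 lower in anergy. Their summed level was 272 to 281 in naive, 225 to 262 in deletion and 233 to 245 in anergy. The lower gene was Ly75, at -0.60 in deletion and -0.65 in anergy, and the higher was Cx3cr1, at 0.44 in anergy (adjusted p = 0.00118). Their part in the Il18 result was not tested. For 5 natural killer cell genes, which could bring the interleukin-18 receptor, the sums were 2600 to 2940, 1170 to 1500 and 1360 to 1510. Klrd1, which CD8 T cells also express, made up most of them and was lower than naive by 1.04 in deletion (-1.04) and 0.92 in anergy (-0.92). Klrk1, the activating receptor NKG2D, was dim and was higher than naive by 0.79 in anergy (limma adjusted p = 0.0014). In deletion Klrk1 differed from naive by 0.29 and did not pass (limma adjusted p = 0.205). The B cell list (4 of 9 measured) had sums of 610 to 680, 404 to 574 and 376 to 433, and its genes moved both ways. Cd72 was lower, at -1.56 in deletion and -1.64 in anergy against naive, Cd22 was higher by 1.17 (adjusted p = 0.000413) and 0.98, and Cxcr5 was higher by 0.64 in deletion (adjusted p = 0.0138). The endothelial, stromal and platelet list (8 of 13) had sums of 434 to 466, 538 to 604 and 343 to 408. Most of each sum was Pecam1, which T cells also express, at 0.43 in deletion and -0.30 in anergy against naive, and the other 7 genes did not pass in any comparison. The part of these lists in the results was not tested.

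Anergy replicate 3 had a wider residual spread than the other 8 arrays (SD 0.166 against 0.094 to 0.128), and replicates of a group correlated at 0.995 to 0.998 over probe sets. It was the lowest anergy array for long-form Il1rl1, Il18r1 and Il18rap and the highest for the short-form probe set. Without it the anergy minus deletion differences were 1.92 for long-form Il1rl1, 0.08 for the short-form probe set, 0.18 for Il18r1, -0.12 for Il18rap and 0.35 for Il18.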

How the data were processed

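Total RNA was Trizol-extracted and hybridised as biotin-labelled cRNA, as the labels' protocols state. The authors deposited log2 expression for each probe set and array, and the submitters' processing notes name RMA; version, annotation and filters are not given in the sources used here, and the log2 scale was read from the method and the range of 1.67 to 13.86. No detection values were used. Probe sets were named by RefSeq accession without version (963 of 1246, 77.3%, as 909 genes; GRCm38.p6, names only), and a gene with several was counted by its brightest. limma 3.58.1 in R 4.3.3 (lmFit, eBayes) was fitted to all 9 arrays with no block (6 residual and 3.65 prior degrees of freedom); tests were two-sided, adjusted by Benjamini-Hochberg over all probe sets, threshold 0.05. The fit was tested on simulated data. Precision is limited by having 3 arrays per group.

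The genes and lists were chosen with earlier results of these data known. The text names every probe set of the 4 genes, all other measured interleukin-1 family genes, Il12rb1, Il12rb2, Il27ra and Ifng, up to 4 genes past the threshold per list and comparison, and the 5 most similar profiles of each probe set with a group difference of at least 1. Deviations of same-numbered deletion and anergy arrays correlated weakly (r = 0.195, 0.270 and 0.280), and pairs with naive ran from -0.154 to 0.274. Arrays with unlike numbers were not compared, so no pairing is established, and the labels state none. The main fit treated no arrays as paired. Promoter windows are RefSeq's (GRCm38.p6).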

Additional observations from a re-analysis of the deposited data

How the results depend on the processing

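Against 16 settings (17 for anergy against deletion), every difference of the probe sets of Il1rl1, Il18r1, Il18rap and Il18 kept its sign. Long-form Il1rl1 ranged from 1.79 to 1.95 for anergy against deletion, 2.17 to 2.48 for deletion against naive and 4.01 to 4.33 for anergy against naive. After quantile normalization Il18r1 moved by more than its replicate SD, to 0.24 for anergy against deletion and 1.91 for anergy against naive; the cause was not tested. Counts over the whole array moved more in anergy against deletion: 16 higher became 38 (quantile normalization) or 31 (array weights), while 26 lower became 13 after median centring, 8 with only those groups fitted, 44 with array weights and 13 with a replicate block on the 6 deletion and anergy arrays, a setting chosen after seeing the data. With 1 array left out, the higher count was 12 to 19 and the lower count 8 (without deletion replicate 2) to 30. The replicate block on all 9 arrays gave 22 higher and 33 lower, and, among the genes named, it changed the calls of Ccl4 (anergy against deletion) and Ccl5 (anergy against naive, adjusted p = 0.0623), besides that of the short-form Il1rl1 probe set in anergy against naive. With the dimmest probe sets left out, Il12rb2 was not tested. No detection call was used, so how far Il33 and short-form Il1rl1 lie above background is unknown.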
